A study of Mus musculus with 7 samples.

Results

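The 8 genes examined here belong to the cap'n'collar (CNC), BACH and small Maf transcription factor network, and all were found, for mouse embryonic fibroblasts (MEFs) under stress, in the deposited table of 49382 genes, each on 1 row. They were chosen by gene symbol and not by their values. They comprise Nfe2l2 and Nfe2l1, which encode NRF2 and NRF1, Keap1, Bach1, the small Maf genes Maff, Mafg and Mafk, and Osgin1. RNA-seq of wild type MEFs, prepared from embryos of day 13.5 to 14.4 and used at passage 3 to 7, gave 7 libraries. The libraries were 1 control, which carries no treatment time in its label, oxidative stress from sodium arsenite (10 μM, 3 hours), osmotic stress from added NaCl (100 mM, 3 hours), ER stress from thapsigargin (1 μM, 10 hours), and glucose depletion, glutamine depletion and hypoxia (0.1% oxygen), each for 10 hours. The number of embryos or cultures behind each library is not given in the sources used here.

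NRF2 and NRF1 are basic leucine zipper activators that bind DNA as a pair with a small Maf protein, at sites known as antioxidant response elements. KEAP1 is the adaptor through which the CUL3 ubiquitin ligase destroys NRF2, and oxidants and thiol-reactive compounds such as arsenite block this step, so that NRF2 is known to be controlled largely at the level of the protein. NRF1 here is the product of Nfe2l1, a factor anchored in the ER membrane and known for the recovery of proteasome genes, and not nuclear respiratory factor 1. BACH1 pairs with the same small Maf proteins and represses heme and iron genes until heme binds it, the small Maf proteins lack a transactivation domain of their own, and Osgin1 is a known NRF2 target linked to oxidative stress and growth inhibition.

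Sequences were taken from RefSeq (GRCm38.p6), whose promoter table holds 300 bases around each start site and matched all 8 genes with 14 windows. The stretches shown are the 250 bases upstream of a start site for Osgin1, Maff and Mafk, the 3 genes that passed 2-fold in at least 1 condition. Capitals mark matches to the motifs searched on both strands, which were the antioxidant response core TGACNNNGC, the CNC-small Maf elements TGAGTCAGC and TGACTCAGC, the AP-1 site TGAGTCA that lies inside both of these elements or their reverse complements, the cyclic AMP response element TGACGTCA, and TGACGTGG, which is bound by factors of the unfolded protein response.
Osgin1, chr8:119436897-119437146, plus strand: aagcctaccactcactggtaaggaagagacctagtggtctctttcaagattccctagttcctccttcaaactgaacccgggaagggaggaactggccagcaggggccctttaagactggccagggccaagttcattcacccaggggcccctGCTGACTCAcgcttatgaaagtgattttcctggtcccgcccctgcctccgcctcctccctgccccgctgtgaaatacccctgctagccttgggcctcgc
Maff, first start site, chr15:79346371-79346620, plus strand: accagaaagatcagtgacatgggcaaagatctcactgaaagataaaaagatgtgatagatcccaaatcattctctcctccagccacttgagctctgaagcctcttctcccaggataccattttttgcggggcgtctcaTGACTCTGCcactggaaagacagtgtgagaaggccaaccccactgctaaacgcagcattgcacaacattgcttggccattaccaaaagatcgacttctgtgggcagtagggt
Maff, second start site, chr15:79347270-79347519, plus strand: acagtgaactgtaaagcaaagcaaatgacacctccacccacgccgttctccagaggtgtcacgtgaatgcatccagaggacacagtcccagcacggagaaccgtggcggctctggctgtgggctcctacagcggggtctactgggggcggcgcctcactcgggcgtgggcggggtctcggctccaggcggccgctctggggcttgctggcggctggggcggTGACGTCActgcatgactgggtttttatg
Mafk, chr5:139791286-139791535, plus strand: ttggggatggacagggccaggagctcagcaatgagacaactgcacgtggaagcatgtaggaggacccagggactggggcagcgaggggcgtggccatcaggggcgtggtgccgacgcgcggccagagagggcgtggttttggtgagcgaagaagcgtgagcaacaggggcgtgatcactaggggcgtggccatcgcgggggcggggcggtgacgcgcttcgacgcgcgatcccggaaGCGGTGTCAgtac
In the Osgin1 stretch the capitals are the reverse complement of TGAGTCAGC, which begins at position -99 from the start site and contains the AP-1 site. That element was present in 0.414% of the 32851 windows of all genes, TGAGTCA in 5.20%, TGACTCAGC in 0.454% and TGACGTCA in 1.79%. The Maff stretches hold TGACTCTGC, a match to the antioxidant response core, at -112 from the first start site, and TGACGTCA at -29 from the second, whereas the window at the third start site matched none of the motifs. Mafk carries the reverse complement of TGACACCGC at -13. In GENCODE M21 annotation, the Osgin1 stretch lies wholly inside the Osgin1 gene, and 29 of its bases are exonic. Of the Mafk stretch 23 bases are exonic, and the match at -13 lies within them. The second Maff stretch lies within an intron of Maff, and the first lies upstream of the gene.

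Over the 8 genes, TGACNNNGC was found in windows of 4 genes, Nfe2l2, Maff, Mafg and Mafk, and this core was present in 13.99% of the 27025 genes with a window and in 12.4% of all windows. The match in Nfe2l2 reads TGACTCCGC and begins at -240. Nfe2l1 held the reverse complement of TGACGTGG at -158 from its most upstream start site, a motif present in 0.676% of windows, and Keap1 and Bach1 matched none of the motifs. For the 18 listed NRF2 target genes that have a window, TGACNNNGC was found in 9, and for the 25 proteasome subunit genes in 4. A match is a description of letters in these windows and no evidence of binding.

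The gene locations on GRCm38 were as follows, all of protein-coding genes. Nfe2l1 lies on chromosome 11 from 96817414 to 96829968 and Mafg on the same chromosome from 120625117 to 120633600. Nfe2l2 lies on chromosome 2 from 75675513 to 75704641, Keap1 on chromosome 9 from 21229730 to 21239361, Bach1 on chromosome 16 from 87698945 to 87733346, Maff on chromosome 15 from 79346621 to 79359076, Mafk on chromosome 5 from 139791513 to 139802653, and Osgin1 on chromosome 8 from 119434124 to 119446256. Apart from Nfe2l1 and Mafg, each gene is on a chromosome of its own.

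The deposited values are TPM (transcripts scaled to a fixed total of 1000000), a share of each library that is scaled for transcript length, so levels of different genes in a library can be set side by side. Changes are given as differences in log2(TPM + 1) from the control, which understates the change of low genes, and 2-fold on this scale was the rule for a call. Every condition had 1 library, so there is no spread between replicates, no test, and no p-value, and neighbours in the order of levels cannot be told apart by their error. Read depth cannot be recovered from TPM and is unknown. The filter on low values was an average of 2 TPM or more across libraries, which all 8 genes and 12909 genes in total passed. Over these genes the median log2 change was -0.16 with arsenite, -0.12 with NaCl and within 0.1 of 0 in the other conditions, so for the first 2 the changes of the 8 genes are also given relative to that median, and those of other genes and lists are uncentred unless stated. In such bulk libraries, a lower level of an mRNA per cell and fewer cells that express it cannot be told apart.

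The labelled cell type was checked in the same libraries. All 9 fibroblast markers were at 2 TPM or above in every library, with a summed level of 10269 to 12813 TPM in 6 libraries and 6166 TPM in ER stress. Summed levels were 6.76 to 15.7 TPM over 6 leukocyte markers, most of it Cd68, 2.14 to 5.37 TPM over 3 endothelial markers, at most 1.08 TPM over 3 epithelial markers and at most 0.503 TPM over 3 erythroid markers. The leukocyte marker Ptprc was at most 0.280 TPM, and Itgam reached 1.99 TPM in osmotic stress and was at most 0.0345 TPM elsewhere. The leukocyte markers Csf1r and Lyz2 were detected in every library, at 0.744 to 2.25 and 0.629 to 2.23 TPM. Mitochondrially encoded genes took 9.25% of the TPM in oxidative stress and 5.09% to 7.58% in the other libraries. The part of these shifts in the results was not tested.

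The 5 calls among the 48 gene and condition pairs were all above the control. In oxidative stress Osgin1 and Maff were past 2-fold, 2 of 8 genes, where 8.78% of all 12909 genes did so in either direction, 3.94% upward and 4.85% downward. In osmotic stress Maff and Mafk were, again 2 of 8, against 11.8% in either direction, 3.08% upward and 8.76% downward. In ER stress it was Mafk alone, 1 of 8, a share below the 19.6% of all genes in either direction and above the 8.60% upward. None of the 8 passed 2-fold without glucose, where 4.24% of all genes did (1.83% upward and 2.41% downward), without glutamine, where 6.41% did (3.21% in each direction), or under hypoxia, where 6.21% did (3.57% upward and 2.64% downward). With 8 genes and 1 library per condition, these shares carry no estimate of error.

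**Figure D1:**
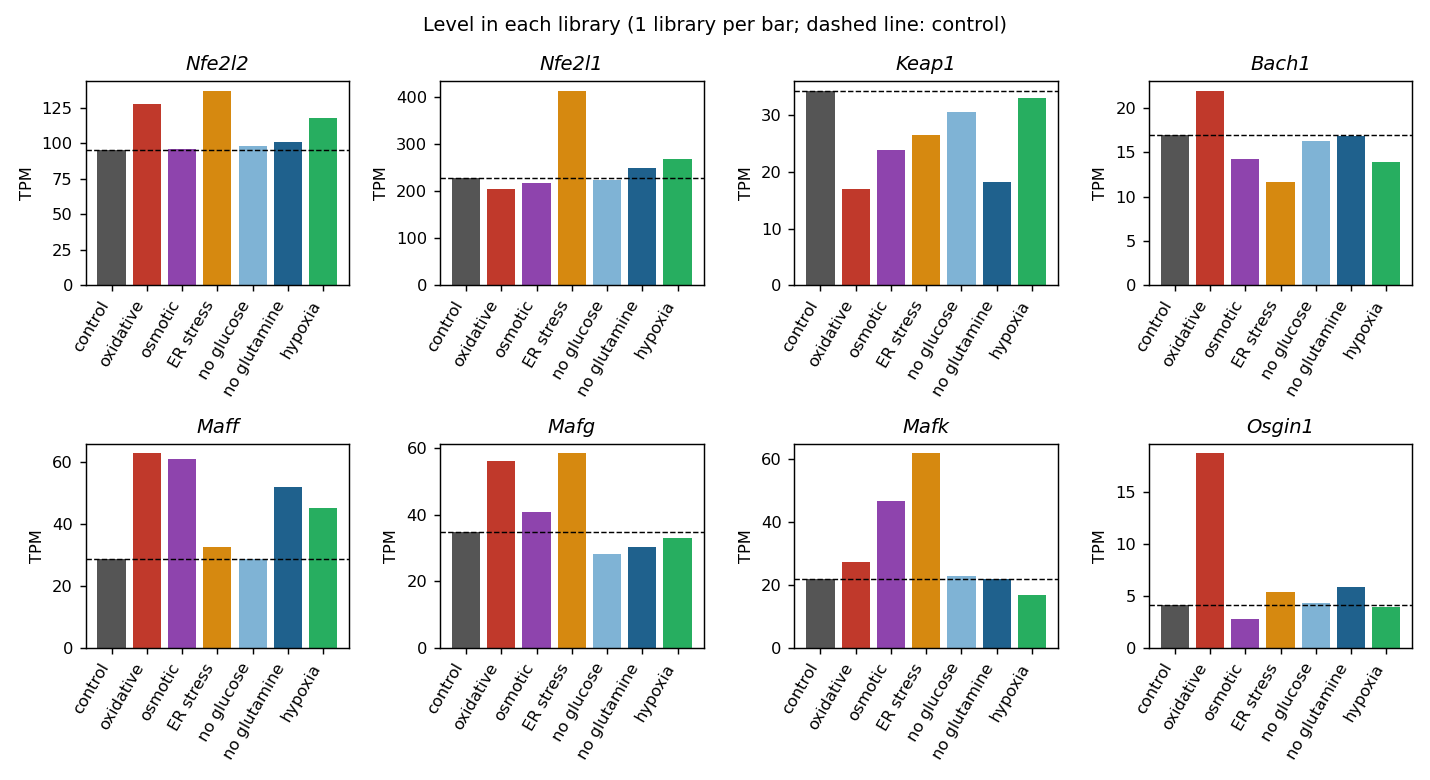
Level in TPM (vertical axes, from 0, each panel on its own scale) of the 8 genes in the 7 libraries, 1 bar per library, with a dashed line at the control. Osgin1 stands out in oxidative stress at 18.6 TPM, Mafk in ER stress at 61.8 TPM, and every condition lies below the control for Keap1.

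**Figure D2:**
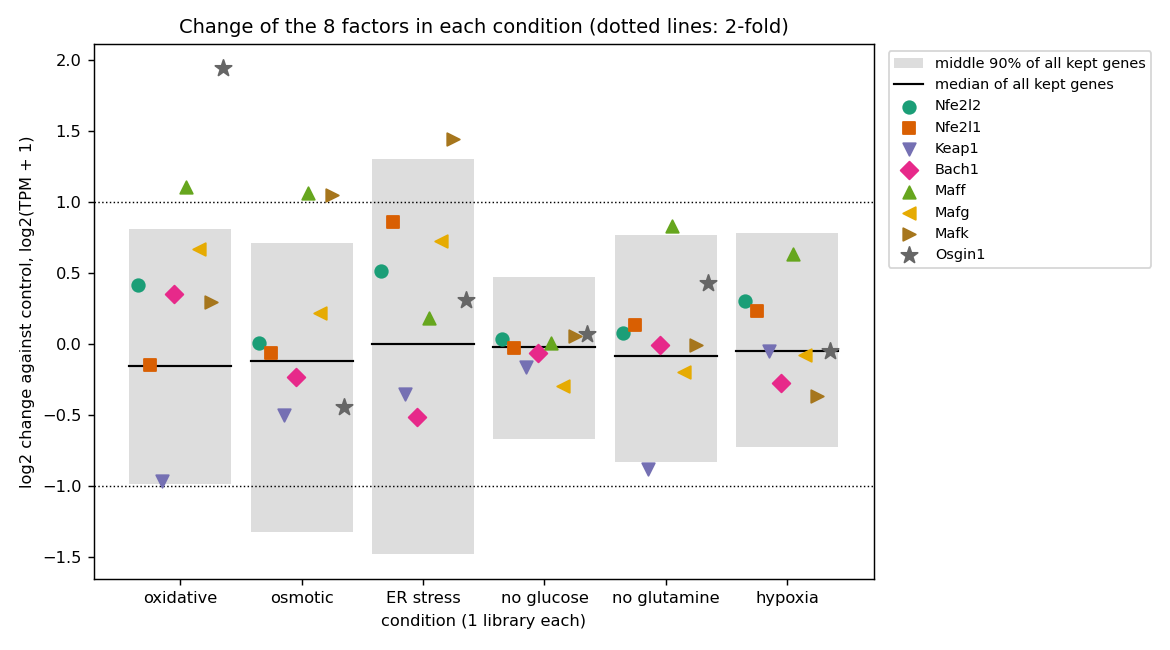
Log2 change against the control on the log2(TPM + 1) scale (vertical axis) of the 8 genes in the 6 conditions (horizontal axis), with the middle 90% of all 12909 kept genes in grey, their median as a black line and 2-fold as dotted lines. The 5 points past 2-fold are all above the upper dotted line, and in glucose depletion all 8 genes lie within 0.30 of 0.

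Nfe2l2 was the second most abundant of the 8 mRNAs and the least variable. Its level was 95.6 TPM in the control, 96.1 with NaCl, 98.0 without glucose, 101 without glutamine, 118 under hypoxia, 128 with arsenite and 137 with thapsigargin. The highest and lowest libraries thus differed by 1.43-fold. The log2 change was 0.52 in ER stress and 0.42 in oxidative stress, or 0.57 relative to the median gene, and 10.3% of all genes had a larger increase in oxidative stress. All 6 conditions were at or above the control, but the osmotic value of 0.01, or 0.13 relative to the median gene, turned to -0.01 when mitochondrially encoded genes were removed from the total.

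Keap1 had its highest level in the control, and all 6 conditions lay below it. Its level was 34.2 TPM in the control, 33.0 under hypoxia, 30.5 without glucose, 26.5 with thapsigargin, 23.8 with NaCl, 18.1 without glutamine and 17.0 with arsenite. The values in oxidative stress and glutamine depletion were 0.497 and 0.530 of the control, with log2 changes of -0.97 and -0.88, and these were the lowest log2 changes of any of the 8 genes in any condition. Relative to the median gene the oxidative value was -0.81. Of all genes, 5.32% in oxidative stress and 4.38% in glutamine depletion had a larger decrease. Keap1 lay just inside the 2-fold rule in oxidative stress, and adding 0.1 TPM rather than 1 TPM before the logarithm gave -1.005, just past it.

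As a ratio within a library, which does not depend on how the other genes share that library, Nfe2l2 mRNA was 2.79 times Keap1 mRNA in the control. The ratio was 7.53 with arsenite, 5.55 without glutamine, 5.17 with thapsigargin, 4.03 with NaCl, 3.58 under hypoxia and 3.21 without glucose. The 2 mRNAs were thus furthest apart in oxidative stress, by 2.69-fold over the control, through a lower Keap1 and a higher Nfe2l2, and by 1.99-fold in glutamine depletion, almost wholly through Keap1. A noncoding gene on the opposite strand, Gm16754, shares 510 exonic bases with Keap1 and was at 0.380 to 3.58 TPM. Kallisto at default settings does not use strand, so reads from these shared bases cannot be assigned with certainty.

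Nfe2l1 was the most abundant of the 8 genes in every library. It was at 228 TPM in the control, 205 with arsenite, 218 with NaCl, 223 without glucose, 250 without glutamine, 267 under hypoxia and 413 with thapsigargin. The ER stress library stood apart, with a log2 change of 0.86 that 11.1% of all genes exceeded upward, and the other 6 libraries lay between 205 and 267 TPM. The value of -0.15 in oxidative stress turned to 0.01, and that of -0.06 in osmotic stress to 0.06, relative to the median gene. The summed level of fibroblast markers was lowest in the ER stress library too, at 6166 TPM against 11425 in the control. Nfe2l1 mRNA was 3.01 times Nfe2l2 mRNA in ER stress, 2.38 times in the control and 1.60 times in oxidative stress.

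Bach1 was less abundant than Nfe2l1 and Nfe2l2, the other small Maf partners among the 8 genes, in every library. It was at 17.0 TPM in the control, 22.0 with arsenite, 16.9 without glutamine, 16.2 without glucose, 14.3 with NaCl, 13.9 under hypoxia and 11.6 with thapsigargin. Oxidative stress was the single condition above the control, with a log2 change of 0.35, or 0.51 relative to the median gene, and ER stress was the lowest, with -0.51. Relative to the median gene, glutamine depletion was also above the control, by 0.08. The ratio of Nfe2l2 to Bach1 mRNA was 5.63 in the control, 5.83 with arsenite and 11.8 with thapsigargin. Bach1 made up 4.99% of the summed TPM of Nfe2l1, Nfe2l2 and Bach1 in the control and 2.07% in ER stress.

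The 3 small Maf genes, whose products are close relatives that can stand in for each other as partners, had similar levels in the control and different profiles across the conditions. Maff was at 28.7 TPM in the control, 62.8 with arsenite, 61.1 with NaCl, 51.8 without glutamine, 45.1 under hypoxia, 32.8 with thapsigargin and 28.9 without glucose. The 2 libraries past 2-fold were those treated for 3 hours, with log2 changes of 1.10 and 1.06, or 1.26 and 1.18 relative to the median gene, and treatment and time cannot be told apart here. Glutamine depletion followed at 0.83 and hypoxia at 0.63. The control was the lowest of the 7 libraries, and against the median of the other 6 libraries the changes in oxidative and osmotic stress were 0.69 and 0.65, below 2-fold.

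Mafk had another order. It was at 22.1 TPM in the control, 61.8 with thapsigargin, 46.7 with NaCl, 27.3 with arsenite, 23.0 without glucose, 21.9 without glutamine and 16.9 under hypoxia. Its log2 change of 1.44 in ER stress was exceeded upward by 4.10% of all genes, and that of 1.05 in osmotic stress, 1.17 relative to the median gene, by 2.90%. With a pseudocount of 5 TPM the osmotic values of Maff and Mafk were 0.97 and 0.93, and neither passed 2-fold. Mafk shares 169 exonic bases with Tmem184a on the opposite strand, which was at 1.94 TPM in ER stress, the library with the low fibroblast marker sum, and 2.87 to 5.38 TPM in the other libraries.

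Mafg was past 2-fold in no condition. It was at 34.98 TPM in the control, 58.4 with thapsigargin, 56.3 with arsenite, 40.9 with NaCl, 33.1 under hypoxia, 30.4 without glutamine and 28.2 without glucose. The log2 changes in ER and oxidative stress were 0.72 and 0.67, and the latter was 0.83 relative to the median gene. Mafg shares 124 exonic bases with Sirt7 on the same strand, which was at 7.23 to 20.4 TPM.

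The sum of the 3 small Maf mRNAs was 85.8 TPM in the control. In oxidative, osmotic and ER stress it was close to the same, at 146, 149 and 153 TPM. The shares of the 3 genes differed between these libraries. Maff held 33.5% of the sum in the control, 42.9% in oxidative stress, 41.1% in osmotic stress, 49.8% in glutamine depletion and 21.4% in ER stress. Mafk held 25.7% in the control, 18.6% in oxidative stress, 31.4% in osmotic stress, 40.4% in ER stress and 17.7% in hypoxia. Mafg held 40.8% in the control, 38.4% in oxidative stress, 27.5% in osmotic stress and 38.2% in ER stress. The sum was 104 TPM without glutamine, 95.1 under hypoxia and 80.1 without glucose.

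**Figure D3:**
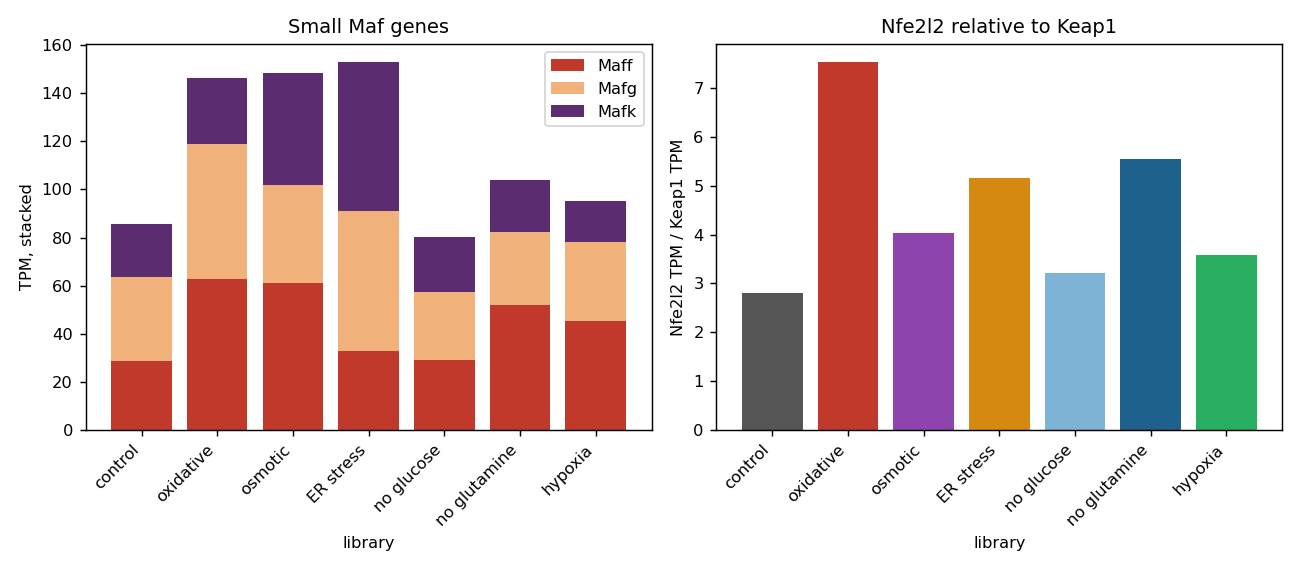
Left, stacked TPM of Maff, Mafg and Mafk in each of the 7 libraries. Right, ratio of Nfe2l2 to Keap1 TPM in the same libraries. Oxidative, osmotic and ER stress reach 146 to 153 TPM of small Maf mRNA with different shares of the 3 genes, and the ratio on the right is highest in oxidative stress, at 7.53.

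Set against their partners, the small Maf mRNAs were scarce. The summed TPM of Nfe2l1, Nfe2l2 and Bach1 was 3.97 times that of the small Maf genes in the control, 4.22 times without glucose, 4.20 under hypoxia, 3.67 with thapsigargin, 3.53 without glutamine, 2.43 with arsenite and 2.21 with NaCl. The excess over small Maf mRNA was therefore lowest in the 2 treatments of 3 hours, where the partner sum stayed at 355 and 328 TPM against 340 in the control. In ER stress both sums were higher, by 1.65-fold and 1.78-fold, and their ratio moved little. These are mRNA ratios and not amounts of protein.

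Osgin1 was the least abundant of the 8 genes in 6 of the 7 libraries and had the largest change. It was at 4.12 TPM in the control, 18.6 with arsenite, 5.90 without glutamine, 5.34 with thapsigargin, 4.36 without glucose, 3.93 under hypoxia and 2.76 with NaCl. In oxidative stress it passed Keap1, at 17.0 TPM. Its log2 change of 1.94, or 2.10 relative to the median gene, was exceeded upward by 247 of the 12909 genes, which is 1.91%, and the TPM ratio was 4.53. No other library came near, the next being glutamine depletion with 0.43. Osgin1 had a mean of 6.44 TPM and did not pass a stricter minimum of 10 TPM.

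The genes most like Osgin1, Maff and Mafk were sought among 6756 genes that spanned at least 1 log2 unit, by Pearson r of log2(TPM + 1) over the 7 libraries, given as a description. For Osgin1 these were Vps37b (r = 0.992), Srxn1 (0.974), which encodes the enzyme sulfiredoxin, and Rhou (0.969). Srxn1 went from 54.0 TPM in the control to 291 with arsenite and 119 without glutamine, and was lowest in osmotic stress at 38.6. Without the oxidative stress library the r values were 0.944, 0.940 and 0.742.

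For Mafk the likest genes were Sec24a (0.986), a coat protein of vesicles that leave the ER, Eif5 (0.983), a translation initiation factor, and Orai2 (0.973), a calcium channel subunit of the plasma membrane. For Maff they were Hmcn1 (0.962), at 1.37 to 4.87 TPM, and the unnamed loci AC245272.5 (0.942) and Gm8034 (0.927), which were at 0 or nearly 0 TPM in the control. Without the library in which the member was highest, the r values were 0.956 to 0.987 for Mafk and 0.948 to 0.957 for Maff. The likest genes, also those of Osgin1, were picked by r over all 7 libraries. Values on part of these libraries are therefore no independent check.

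Relatives of the 8 factors were mostly at low levels. Of 7 listed, Nfe2, Nfe2l3, Mafa and Nrl were below 2 TPM in the mean and 3 were kept. Bach2, a repressor known from lymphocytes, went from 0.813 TPM in the control to 4.05 with arsenite (log2 change 1.48) and 7.60 in glutamine depletion (2.25), and was at 0.785 to 2.54 TPM in the other libraries. It met the minimum mean of 2 TPM only through its level in glutamine depletion, so its call there is not independent of the filter. Of all genes, 8.78% were past 2-fold with arsenite (3.94% upward) and 6.41% without glutamine (3.21% upward). Maf, the founding large Maf gene, was between 7.32 and 16.3 TPM.

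For the turnover of NRF2 and BACH1, 9 of 10 listed genes were kept, and 1 passed 2-fold. This was Sqstm1, whose product p62 carries KEAP1 to autophagy, at 365 TPM in the control, 801 with arsenite (log2 change 1.13) and 1507 with thapsigargin (2.04). With arsenite 8.78% of all genes were past 2-fold in either direction and 3.94% upward. With thapsigargin these shares were 19.6% and 8.60%. Cul3 and Rbx1, the scaffold and RING subunit of the KEAP1 ligase, stayed within 110 to 175 and 47.7 to 66.9 TPM. Fbxo22, which encodes a ligase subunit that targets BACH1, was at 34.6 TPM in the control and 20.1 in oxidative stress (-0.76).

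For the processing of NRF1, Syvn1 and Sel1l, which encode the ligase HRD1 and its partner in ER-associated degradation, were past 2-fold in ER stress, 2 of 6 genes, with log2 changes of 2.69 and 2.53. In that library 19.6% of all genes were past 2-fold in either direction and 8.60% upward. The other genes of this list in ER stress were Vcp at 0.75, Ddi2, the protease that cleaves NRF1, at 0.51, Ngly1, which removes its glycans, at 0.11, and Fbxw7 at -0.28. In hypoxia Fbxw7 alone was past 2-fold, at 24.1 TPM against 10.8 (1.09), where 6.21% of all genes were in either direction and 3.57% upward. The library with the highest Nfe2l1, that of ER stress, also had the highest Syvn1, Sel1l, Vcp and Ddi2. Ngly1 was highest there too, by little, at 17.3 TPM against 17.2 in hypoxia, and Fbxw7 was not.

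The 31 proteasome subunit genes, the known target set of NRF1, were past 2-fold in no condition. Of all genes, 8.78% were in oxidative stress, 11.8% in osmotic stress and 19.6% in ER stress. The shares were 4.24% without glucose, 6.41% without glutamine and 6.21% under hypoxia, all in either direction. The median log2 change of the subunits was -0.03 in ER stress, where Nfe2l1 was highest and the median of all genes was 0.00, and single subunit genes ranged from -0.52 to 0.51. The median was -0.00 in oxidative stress, or 0.15 above that of all genes, and -0.31 in hypoxia, or 0.26 below, with 29 of the 31 genes under the control in hypoxia.

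Of the 22 listed NRF2 targets 21 were kept, and 6 were past 2-fold in oxidative stress, all upward, where 3.94% of all genes were, with a median of 0.35 over the list. Hmox1, the heme-degrading enzyme that is also the classic BACH1-repressed gene, went from 266 to 6055 TPM (log2 change 4.50), and Srxn1 was at 2.41. Nqo1, a quinone reductase, was at 0.42 there, with 106 TPM in the control and 142 with arsenite. In ER stress 4 were past 2-fold upward and 1 downward, with a median of 0.14, and this count of 5 of 21 is near the 19.6% of all genes past 2-fold in that library. With a mean of at least 10 TPM as the filter it was 3 of 19. They included Hmox1 (2.75), Slc7a11, the cystine transporter (2.44), and Gstm1 (-2.14). The other 15 of 21 in oxidative stress and 16 of 21 in ER stress were not past 2-fold.

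In glutamine depletion 2 of 21 NRF2 targets were past 2-fold, Txnrd1 (1.19), which encodes thioredoxin reductase, and Srxn1 (1.13). The list median was -0.17, with 17 of the 21 below the control. The share of all genes past 2-fold in that library was 6.41% in either direction and 3.21% upward. Keap1 was low in this library as in oxidative stress, where 6 of the 21 were past 2-fold, and a link between Keap1 level and targets was not tested. In osmotic stress, where Maff and Mafk were past 2-fold, none of the 21 targets was, with a median of -0.06 and a highest value of 0.32. In hypoxia 1 was past 2-fold, Cbr3, at -1.02, a call that was lost at -0.97 relative to the median gene and with a pseudocount of 5 TPM. In glucose depletion none was. The shares of all genes in either direction were 11.8% in osmotic stress, 6.21% in hypoxia and 4.24% in glucose depletion. Hmox1 was at 256 TPM with NaCl, 217 without glucose, 265 without glutamine and 497 under hypoxia, and Nqo1 at 69.2 to 113 TPM in these and ER stress.

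Of 7 heme and iron genes repressed by BACH1, 3 of them also among the NRF2 targets, 2 were past 2-fold in oxidative stress, Hmox1 and Slc40a1, the iron exporter ferroportin (1.13), and in ER stress Hmox1 alone. The shares of all genes were 8.78% in oxidative stress (3.94% upward) and 19.6% in ER stress (8.60% upward). Fth1 and Ftl1, the ferritin subunits, were at 0.45 and 0.12 in oxidative stress. No other condition had a gene of this list past 2-fold.

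AP-1 subunits, bZIP factors whose site overlaps the CNC-small Maf element, were past 2-fold for 3 of 8 genes with arsenite, 4 with NaCl, 4 without glutamine, 2 with thapsigargin and none without glucose or under hypoxia, all upward. In these 4 conditions, in the order given, 8.78%, 11.8%, 6.41% and 19.6% of all genes were past 2-fold in either direction. The upward shares were 3.94%, 3.08%, 3.21% and 8.60%. The count with thapsigargin is thus near the share in either direction and above the upward share, from 8 genes and 1 library. Their medians were 0.76 with arsenite, 0.67 with NaCl, 0.91 without glutamine and -0.58 with thapsigargin. Jun and Junb, for example, were lower in ER stress than in the control, at 39.9 and 43.7 TPM against 71.0 and 67.1. Atf3 was at 3.02 TPM in the control, 88.3 with arsenite and 112 with thapsigargin, and Fosb was at 1.03 TPM in the control and 6.77 and 6.37 in oxidative and osmotic stress. All these changes are taken against the same control library, so its own error enters every condition.

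**Figure D4:**
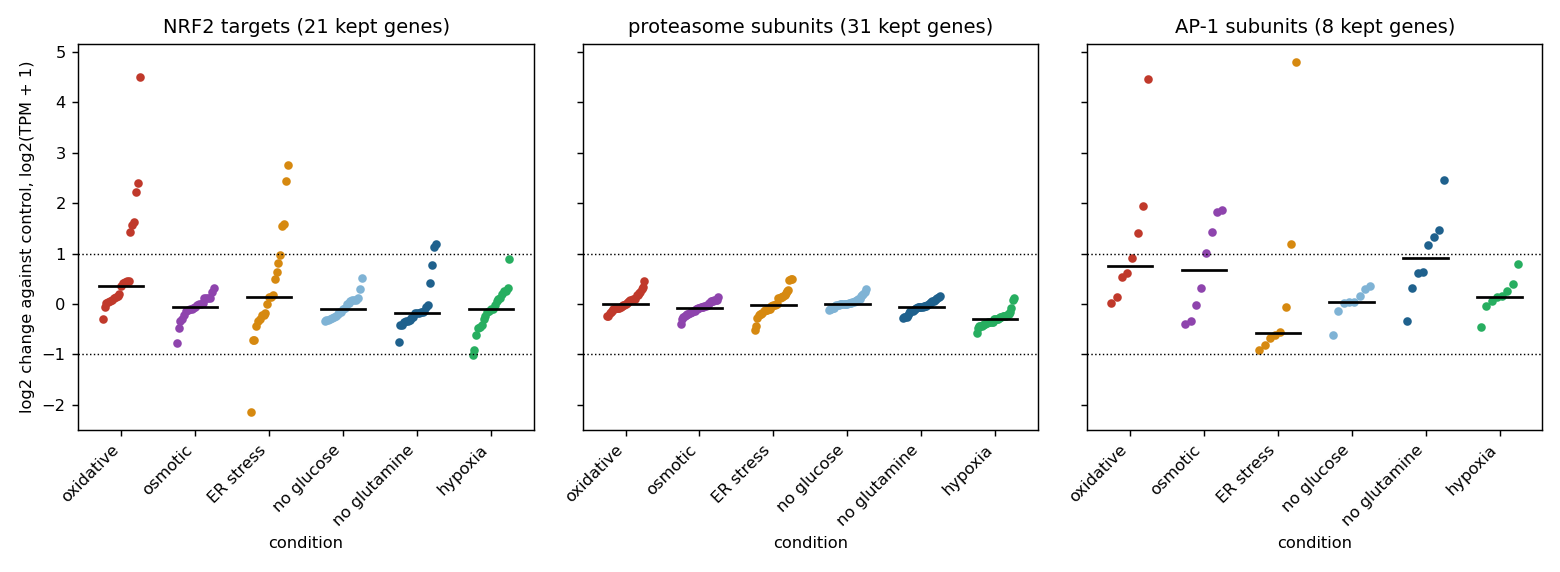
Log2 change against the control on the log2(TPM + 1) scale (vertical axis) of the kept genes of 3 lists in the 6 conditions (horizontal axis), 1 point per gene, a black line at the list median and dotted lines at 2-fold. NRF2 targets past 2-fold number 6 of 21 in oxidative stress, all upward, and 5 of 21 in ER stress, 4 of them upward. Of all genes, 8.78% and 19.6% were past 2-fold in these libraries, 3.94% and 8.60% upward. The 31 proteasome subunits stay between the dotted lines throughout, and the AP-1 medians are above 0.6 in oxidative stress, osmotic stress and glutamine depletion.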

How the data were processed

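RNA-seq libraries (stranded mRNA protocol, paired reads of 76 bases), 7 in all, were analysed, 1 per condition, grouped by the treatment in their labels. The authors pseudoaligned reads with Kallisto (version 0.43.1 in the submitters' processing notes) at default settings to all GRCm38 cDNA transcripts of Ensembl release 90, added up the TPM of a gene's transcripts, and deposited these gene-level TPM. TPM keeps no depth.

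From the TPM, log2(TPM + 1) differences from the control were computed, with a mean of at least 2 TPM as the filter and the study's 2-fold rule. No test was possible. Alternatives tried were a pseudocount of 0.1 or 5 TPM, no filter or a mean of 10 TPM, centring on the median gene, removal of mitochondrially encoded genes, a 1.5-fold rule and the median of the other 6 libraries as the reference. The likeness without 1 library was added after seeing the data.

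The 8 genes, the lists and the naming rule were chosen with earlier results of these data known. The rule names the 8 genes, Hmox1 and Nqo1, cell type markers, up to 2 list genes per direction and condition past 2-fold, and the 3 likest genes of each of the 8 past 2-fold. The other list genes in the text were named after their values were seen. One gene that the rule names is not reported here. Steps were tested on simulated data. Calculations ran in Python 3.11.15 with pandas 2.3.3 and numpy 2.4.6, and plots in matplotlib 3.10.9.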

Additional observations from a re-analysis of the deposited data

How the results depend on the processing

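Without replicates there was no error to set against the changes. Each alternative was read by the side of the 2-fold rule, which shows dependence on processing and not the spread between cultures. None of the changes of the 8 genes past 2-fold changed sign under the alternatives run, and the counts of proteasome subunits stayed at 0 throughout. A pseudocount of 5 TPM took the number of the 8 genes past 2-fold in osmotic stress from 2 to 0, and that of NRF2 targets in hypoxia from 1 to 0, as centring on the median gene also did. A mean of at least 10 TPM removed Osgin1 and left 1 of the 8 in oxidative stress, and 3 NRF2 targets in ER stress. Against the median of the other 6 libraries, 1 of the 8 was past 2-fold in oxidative and 1 in osmotic stress, since Maff was lowest in the control. The 1.5-fold rule by construction gave more, namely 4 of the 8 in oxidative stress, 3 in ER stress, 2 without glutamine and 1 under hypoxia, and 10 NRF2 targets in ER stress, 4 without glutamine, 4 under hypoxia and 1 with NaCl. Removing the filter or the mitochondrially encoded genes, or a pseudocount of 0.1 TPM, moved none of these counts by over 1.5 times. Genes of the other lists were not recomputed under the alternatives. Depth is unknown, so the counting error of low genes such as Osgin1 cannot be given.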
